A study of Mus musculus with 18 samples.

Results

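The genes described here are the receptors for the colony-stimulating factors and 2 of their ligands: *Csf1r*, *Csf2ra*, *Csf2rb*, *Csf2rb2*, *Csf3r*, *Csf1* and *Csf2*. They were chosen by symbol, through their versioned Ensembl identifiers. Of these 7 genes, 6 were among the 13759 genes counted in metastasis-associated macrophages (MAMs), and *Csf2* was not analysed there. *Csf1* and *Csf2* were also read in the 54309 features counted in liver lymphocytes.

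The study asked which cells of a liver metastasis (LM) shape the NK cells inside it. It used an antibody to CSF1R, which by its report removed macrophages with high F4/80 and hardly affected those with intermediate F4/80. All 18 libraries came from liver of female C57BL/6J mice aged 8 to 10 weeks, which had received MC38 cells, a colon adenocarcinoma line of the mouse, through the spleen, and were taken about 20 days later. MAMs were sorted from LM as lin- CD45+CD11b+ cells with high or low F4/80 (F4/80high and F4/80low, 3 libraries each; the study calls the latter intermediate), and no genotype or treatment differed between them. The lymphocytes were NK cells and ILC1 of metastasis-free liver (MFL) and, from LM, NK cells without (LM CD49a- NK) or with CD49a (LM CD49a+ NK), 3 libraries each, every library a pool of 6 to 8 samples. The sample titles call the last population ILC1, and its cell type label, used here, calls it NK. LM tissue was digested with enzymes whereas MFL was mechanically dissociated, so site and dissociation cannot be told apart. Whether the MAM libraries came from separate mice or pools is not given in the sources used here, and their p-values measure only the spread between these libraries. F4/80high and F4/80low cells were sorted from the same tissue by 1 gate, and in such bulk libraries fewer cells of a type and less RNA per cell cannot be told apart.

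Colony-stimulating factors are the cytokines that make and maintain myeloid cells. CSF1 and IL-34 bind CSF1R, a receptor tyrosine kinase on which most tissue macrophages depend. GM-CSF, encoded by *Csf2*, binds a specific alpha chain (*Csf2ra*) that pairs with a common beta chain (*Csf2rb*), shared with the receptors for IL-3 and IL-5, and signals through JAK2 and STAT5. Mice carry a second beta chain, *Csf2rb2*, which serves the IL-3 receptor. G-CSF binds CSF3R, the receptor of neutrophils and their precursors.

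*Csf2rb* and *Csf2rb2* are near copies, and their sequences set how well reads can be assigned between them. In GENCODE vM39 (GRCm39) *Csf2rb2* lies at chr15:78166707-78189921 on the minus strand and *Csf2rb* at chr15:78209952-78238047 on the plus strand, 20030 bases apart and transcribed away from each other. Aligned over their longest coding sequences, 2505 of 2631 bases were identical (95.2%), with an identical run of 242 bases. Of all stretches as long as a lymphocyte read, 6.717% of those in annotated *Csf2rb2* transcripts also occurred in *Csf2rb* transcripts, and 4.559% of those of *Csf2rb* occurred in *Csf2rb2*. For 31-base stretches these shares were 28.6% and 18.8%, so the counts of the 2 genes are not fully independent. Of the 120-base coding windows within a single exon, the most alike pair had 0 differences, and the pair that differed most is shown. Its *Csf2rb* window lies in exon 5 at chr15:78223067-78223186 and its *Csf2rb2* window in exon 4 at chr15:78178545-78178664. Capitals mark the 16 bases at which they differ.
Csf2rb: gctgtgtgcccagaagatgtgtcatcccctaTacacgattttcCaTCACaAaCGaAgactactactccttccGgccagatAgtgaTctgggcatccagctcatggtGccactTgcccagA
Csf2rb2: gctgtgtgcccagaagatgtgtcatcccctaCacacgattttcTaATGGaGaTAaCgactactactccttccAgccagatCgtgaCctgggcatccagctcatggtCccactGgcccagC

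The receptors fell into 2 patterns in MAMs. *Csf1r* was 1.56-fold higher in F4/80high than in F4/80low MAMs, whereas the chains of the GM-CSF and IL-3 receptors were lower: *Csf2ra* 2.04-fold, *Csf2rb* 4.05-fold and *Csf2rb2* 3.34-fold. *Csf3r* did not pass the test, and *Csf1* was higher in F4/80high MAMs with overlapping groups. In all, 5 of the 6 genes passed an adjusted p of 0.1 (edgeR, quasi-likelihood F-test, adjusted after Benjamini and Hochberg over all 13759 genes, as for every adjusted p in MAMs unless stated). In the same comparison 54.9% of all genes passed, 27.8% higher and 27.1% lower in F4/80high MAMs, and the groups of 58.4% of genes did not overlap. The count of 5 is therefore to be read against a comparison in which most genes differed.

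*Csf1r*, which marks the mononuclear phagocyte lineage, was by far the most abundant of these genes. Its CPM, counts scaled to the TMM-adjusted size of each library, were 2899, 2353 and 3599 in F4/80high replicates 1, 2 and 3, and 1743, 1908 and 2025 in F4/80low replicates 1, 2 and 3. Every F4/80high library lay above every F4/80low library, with the smallest gap at F4/80high replicate 2. The means were 2950.5 ± 624.3 and 1892.0 ± 141.5 CPM (SD, n = 3 each), a log2 fold change of 0.64 (SE 0.16, adjusted p = 0.00992). The order of the F4/80high libraries was that of the summed level of the mature macrophage markers, which was 25975.3, 22204.3 and 30156.4 CPM in the same libraries against 6195.1 to 7902.8 CPM in F4/80low MAMs. Its part in the result was not tested.

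*Csf2ra*, the ligand-specific chain of the GM-CSF receptor, was read at 274.6, 248.9 and 284.3 CPM in F4/80high replicates 1 to 3 and at 560.7, 511.9 and 572.6 CPM in F4/80low replicates 1 to 3. The groups did not overlap, and the log2 fold change was -1.03 (SE 0.09, adjusted p = 6.04e-05). *Csf2rb*, the signalling chain, gave 204.1, 154.5 and 206.8 CPM in F4/80high and 770.0, 771.6 and 747.0 CPM in F4/80low libraries. The F4/80low libraries lay close together at 762.9 ± 13.7 CPM (SD, n = 3), far above the F4/80high libraries, and the log2 fold change was -2.02 (SE 0.13, adjusted p = 9.41e-06). *Csf2rb2* gave 101.5, 67.8 and 106.5 CPM against 333.8, 288.8 and 297.6 CPM, a log2 fold change of -1.74 (SE 0.17, adjusted p = 8.47e-05). For all 3 chains F4/80high replicate 2 was the lowest library. With the counts of *Csf2rb* and *Csf2rb2* added up, as their shared stretches call for, the difference was -1.93 on the log2 scale (adjusted p = 1.97e-05).

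*Csf3r* is a gene that neutrophils express strongly. Its CPM were 80.4, 73.3 and 103.4 in F4/80high replicates 1 to 3 and 66.8, 84.1 and 74.8 in F4/80low replicates 1 to 3. The groups overlapped, and the log2 fold change of 0.19 (SE 0.14) did not pass the test (adjusted p = 0.306), which does not show that the groups were alike. The neutrophil marker list moved the other way. All 9 of its listed genes were lower in F4/80high MAMs, beside 27.1% of all genes. The list summed to 7.55 to 12.2 CPM against 289.3 to 578.3 CPM, mostly *Mmp9*. The granule gene *Ngp* was highest in F4/80low replicate 1, at 51.4 CPM against 1.30 and 5.06 CPM in the other F4/80low libraries. That library had the lowest *Csf3r* of all 6, and *Ly6g*, *Camp*, *Elane* and *Mpo* were not among the genes counted.

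**Figure D1:**
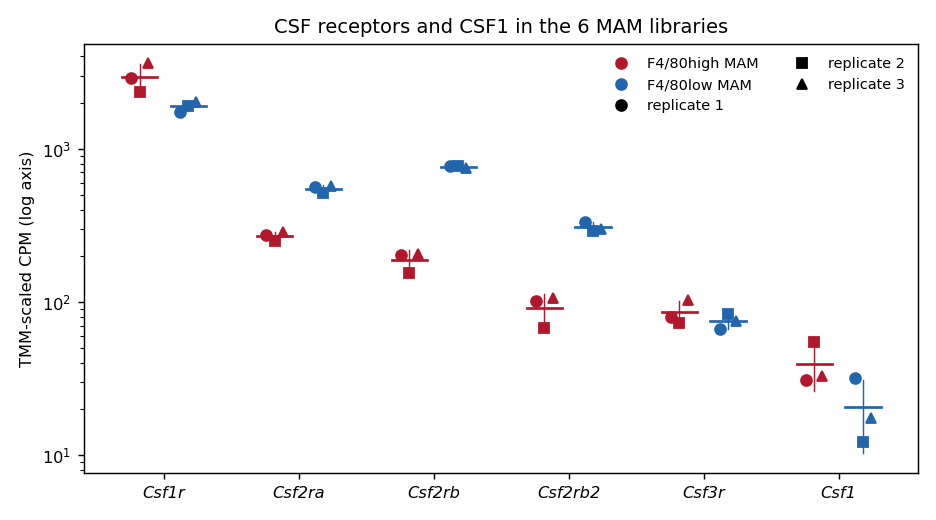
TMM-scaled CPM (log axis) of the 6 colony-stimulating factor genes in each MAM library; symbols give the replicate, colors the group, horizontal lines the mean and vertical lines 1 SD (n = 3). *Csf2ra*, *Csf2rb* and *Csf2rb2* were lower in all F4/80high libraries, *Csf1r* was higher, and the groups overlapped for *Csf3r* and *Csf1*.

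Levels of different genes were set side by side per kilobase of exon, with all annotated exons of a gene merged. The order of the genes and the ratios between them thus depend on that annotation, not on the transcripts expressed. On this scale *Csf1r* stood at 400.8 ± 84.8 CPM per kb in F4/80high and 257.0 ± 19.2 in F4/80low MAMs (SD, n = 3). *Csf2ra* followed with 92.1 ± 6.25 and 187.6 ± 11.0 CPM per kb, then *Csf2rb* with 25.9 ± 4.05 and 104.8 ± 1.89. The order below these was the same in both groups, *Csf2rb2* (19.4 ± 4.44 and 64.7 ± 5.04), *Csf3r* (16.8 ± 3.09 and 14.7 ± 1.70) and *Csf1* (6.72 ± 2.24 and 3.51 ± 1.76). In F4/80high MAMs *Csf2rb* and *Csf2rb2*, and *Csf2rb2* and *Csf3r*, lay within their SDs of each other, whereas in F4/80low MAMs all neighbours in the order were further apart than their SDs. Without division by length, *Csf2rb* lay above *Csf2ra* in F4/80low MAMs, at means of 762.9 and 548.4 CPM.

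The balance of receptors was also read as a ratio within each library, which no scaling between libraries can change. *Csf1r* exceeded *Csf2rb* per kilobase 14.0-fold, 15.1-fold and 17.2-fold in the F4/80high libraries and 2.24-fold, 2.44-fold and 2.68-fold in the F4/80low libraries. The ratio of *Csf1r* to *Csf2ra* was 4.33 ± 0.647 against 1.37 ± 0.126 (SD, n = 3). The 2 chains of the GM-CSF receptor did not differ in proportion, since *Csf2rb* per *Csf2ra* was 0.249 to 0.299 in F4/80high and 0.524 to 0.606 in F4/80low MAMs. For each of these ratios the groups did not overlap and the two-sided exact permutation p was 0.1, the smallest that 3 against 3 libraries allow. The alpha and beta chains thus differed between the groups by unequal amounts.

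*Csf1*, the main ligand of CSF1R, was read at 31, 54.7 and 32.8 CPM in F4/80high replicates 1 to 3 and at 32.2, 12.3 and 17.4 CPM in F4/80low replicates 1 to 3. F4/80low replicate 1 lay between the F4/80high libraries. The log2 fold change was 0.93 (SE 0.35, adjusted p = 0.0567). It passed the threshold narrowly: without F4/80high replicate 2 the adjusted p was 0.19, without F4/80low replicate 2 it was 0.142, without F4/80low replicate 3 it was 0.138, and by DESeq2 it was 0.103. The summed fibroblast and stellate cell markers had the same order within each group, at 260.8, 561.9 and 315.3 CPM in F4/80high and 152.2, 44.2 and 95.6 CPM in F4/80low replicates 1 to 3. Of that list 5 of 6 listed genes were higher in F4/80high MAMs, beside 27.8% of all genes. Among the 5 were the collagen gene *Col1a2* (110.8, 335.7 and 139.9 CPM against 41.8, 18.6 and 30.4) and *Pdgfra* (3.11 to 5.63 against 0.751 to 1.43 CPM). *Lum* and *Lrat* were not among the genes counted. These transcripts were read in libraries of cells sorted as CD45+CD11b+. The part of these transcripts in the *Csf1* result was not tested.

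Among the other ligands and partner receptors, *Il34*, the second CSF1R ligand, was higher in F4/80high MAMs. Its level was 2.12, 3.79 and 2.95 CPM against 1.08, 0.307 and 1.17 CPM, a log2 fold change of 1.80 (SE 0.47, adjusted p = 0.0135). It was also highest where the fibroblast markers were highest, in F4/80high replicate 2. Among F4/80low libraries it was highest in replicate 3, and the fibroblast markers in replicate 1 (152.2 CPM against 95.6 CPM in replicate 3). The part of fibroblast transcripts in the *Il34* result was not tested. *Il3ra*, the alpha chain of the IL-3 receptor, was slightly lower in F4/80high MAMs, at 34.2 to 38.5 CPM against 40.3 to 46.4 CPM (log2 fold change -0.26, SE 0.09, adjusted p = 0.0404), and it missed the threshold without F4/80low replicate 1 (adjusted p = 0.118). *Csf3*, *Il3*, *Il5* and *Il5ra* were not among the genes counted in MAMs.

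CSF1 is made as a membrane protein and released by proteases. Of 5 genes that process or shed it, 3 were higher and 1 lower in F4/80high MAMs, beside 27.8% and 27.1% of all genes. *Rhbdf1*, which encodes an iRhom cofactor of ADAM17, was higher at 14.8 to 22.9 against 2.90 to 4.73 CPM (log2 fold change 2.33, adjusted p = 8.85e-05). *Adam17*, the sheddase, was higher by 0.43 on the log2 scale (adjusted p = 0.0126), and the proprotein convertase gene *Furin* fell by 0.37 (adjusted p = 0.0232).

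**Figure D2:**
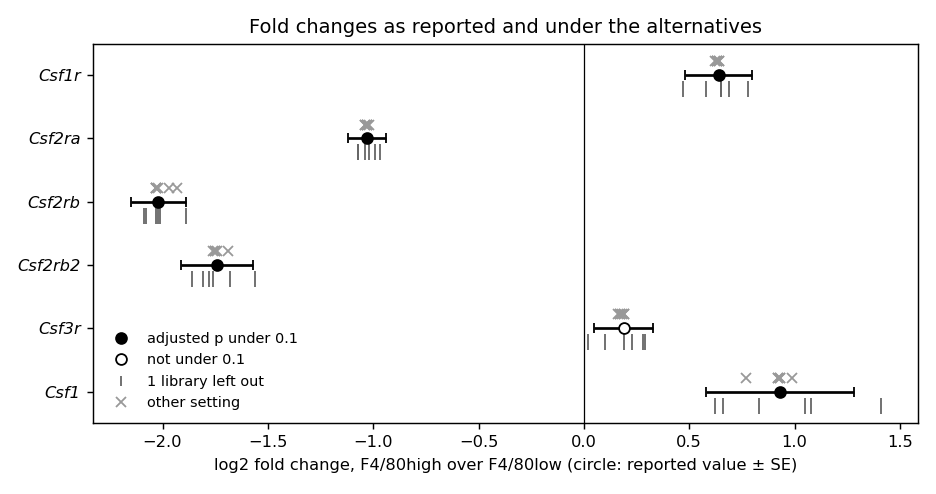
Log2 fold change of F4/80high over F4/80low MAMs for the 6 genes; circles with bars give the reported value ± SE (filled: adjusted p under 0.1), ticks the values with 1 library left out and crosses those of the other settings. The values for *Csf2ra*, *Csf2rb* and *Csf2rb2* stayed at -0.97 or lower throughout, whereas *Csf1* ranged from 0.62 to 1.41.

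The genes of the signalling pathways of these receptors, inhibitors included, were mostly lower in F4/80high MAMs. Of 20 genes of GM-CSF and G-CSF receptor signalling, 17 were lower, none was higher and 3 did not pass, beside 27.1% of all genes lower. Their median log2 fold change was -0.59, beside 0.01 over all genes. *Jak2*, the kinase bound to the beta chain, was read at 53.3, 46.9 and 52.3 CPM in F4/80high and at 392.6, 338.1 and 265.8 CPM in F4/80low libraries (log2 fold change -2.71, SE 0.15, adjusted p = 5.34e-06). *Cish*, a STAT5-induced inhibitor of the pathway, was at 4.51 to 9.14 CPM against 35.3 to 52.9 CPM (log2 fold change -2.86, SE 0.27, adjusted p = 7.56e-05).

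Of 14 genes known to respond to GM-CSF, 12 were lower, 1 was higher and 1 did not pass, with a median of -2.80. *Csf2rb* and *Csf2rb2*, which belong to the same list, were left out. Over all genes 27.1% were lower and 27.8% higher, and some of the 14, such as *Cish*, also stand in the signalling list. The chemokine genes *Ccl17* and *Ccl22* were at 1.04 to 1.67 and 4.00 to 4.99 CPM in F4/80high MAMs against 83.7 to 148.4 and 285.3 to 511.4 CPM in F4/80low MAMs. Their log2 fold changes were -6.45 (adjusted p = 2.05e-06) and -6.36 (adjusted p = 1.81e-06). *Bcl2l1*, which encodes the survival protein BCL-XL, was the gene of this list that was higher, at 126.4 to 154.8 against 67.0 to 101.1 CPM (log2 fold change 0.78, adjusted p = 0.00387). Several of these genes are also expressed by dendritic cells. Of 10 dendritic cell markers, 9 were lower in F4/80high MAMs and *Xcr1* did not pass, and the list summed to 97.3 to 167.3 CPM against 1284.8 to 1775.6 CPM. *Itgax*, which stands in the GM-CSF responsive list as well, gave 69.7 to 132.2 and 766.6 to 952.2 CPM of these sums. *Cd209a* was at 109.7 to 140.6 CPM and *Ccr7* at 146.0 to 323.4 CPM in F4/80low libraries, against at most 2.55 and 5.72 CPM in F4/80high libraries. The part of these cells in the levels of *Csf2ra*, *Csf2rb*, *Csf2rb2* and their targets was not tested.

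Genes acting downstream of CSF1R, inhibitors of its signal included, did not follow *Csf1r*. Of 24 such genes, 2 were higher, 17 lower and 5 did not pass, beside 27.8% of all genes higher and 27.1% lower. Their median log2 fold change was -0.46. The adaptor gene *Gab3* was higher at 7.78 to 8.60 against 3.89 to 4.24 CPM (log2 fold change 1.00, adjusted p = 0.000893), and *Sos1*, an exchange factor for RAS, was higher with overlapping groups (0.38, adjusted p = 0.0868). *Cblb*, an E3 ubiquitin ligase gene, and *Fyn*, a SRC family kinase gene, were lower, with log2 fold changes of -1.70 (adjusted p = 1.75e-05) and -1.61 (adjusted p = 1.57e-05). Some of these genes, such as *Syk*, *Grb2* and *Lyn*, serve both receptor families and stand in both lists.

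Of 12 transcription factors known to act on *Csf1r*, 2 were higher, 5 lower and 5 did not pass, with a median of -0.17. The number that passed is close to the 54.9% of all genes. *Maf* was at 548.9 to 761.8 CPM against 73.9 to 183.6 CPM (log2 fold change 2.35, SE 0.30, adjusted p = 0.000371), and *Fli1* was higher by 0.35 (adjusted p = 0.0432). The immediate early genes *Egr2* and *Egr1* were lower, with log2 fold changes of -2.43 (adjusted p = 0.000524) and -1.32 (adjusted p = 0.00612). *Spi1*, which encodes PU.1 and was chosen after its values were seen because its motif was searched, was at 403.0 to 430.2 CPM against 606.1 to 626.5 CPM (log2 fold change -0.56, SE 0.08, adjusted p = 0.000669).

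**Figure D3:**
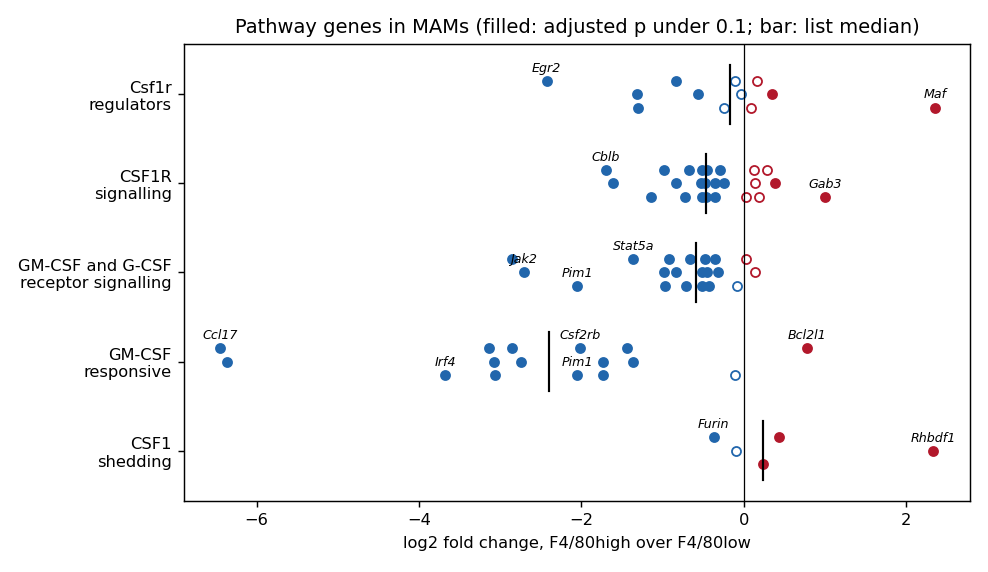
Log2 fold change of F4/80high over F4/80low MAMs for the genes of 5 lists; filled circles passed an adjusted p of 0.1, open circles did not, red and blue mark positive and negative values and vertical bars the list median. The GM-CSF responsive genes lie furthest to the left with a median of -2.40 (members *Csf2rb* and *Csf2rb2* included), and the genes for CSF1 shedding have a positive median of 0.24.

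The chains of the GM-CSF and IL-3 receptors were lower together. The 250 bases before RefSeq transcription starts (GRCm38.p6) were therefore searched on both strands for motifs of myeloid and cytokine-induced transcription. RefSeq promoters matched 5 of the 7 genes: *Csf1*, *Csf2*, *Csf2ra*, *Csf2rb2* and *Csf3r*. None was available for *Csf1r* or for *Csf2rb*, the common beta chain, so of the GM-CSF receptor only *Csf2ra* was searched. The PU.1 core GAGGAA occurred 2 times before *Csf2ra*, once before *Csf2rb2* and once before *Csf3r*, and in 23.3% of all 32851 promoters of that length. The STAT motif TTCNNNGAA occurred once before *Csf2rb2*, and in 7.0% of all promoters. Neither motif was found before *Csf1* or *Csf2*. The AP-1 motif TGACTCA (4.5% of all promoters) and the C/EBP motif TTGCNNAAT (2.1%) were found before none of the 5. The *Csf2ra* stretch lies at chr19:61228419-61228668 and the *Csf2rb2* stretch at chr15:78305722-78305971 of GRCm38.p6, both on the minus strand, and they are shown because both genes were lower in F4/80high MAMs. Capitals mark the PU.1 core, read as GAGGAA or its complement TTCCTC, and the STAT motif, none of which overlap.
Csf2ra: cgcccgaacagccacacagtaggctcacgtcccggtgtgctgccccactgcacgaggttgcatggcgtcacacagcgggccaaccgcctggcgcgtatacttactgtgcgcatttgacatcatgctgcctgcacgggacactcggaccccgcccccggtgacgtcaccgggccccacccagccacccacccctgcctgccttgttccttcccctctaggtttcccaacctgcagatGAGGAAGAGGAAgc
Csf2rb2: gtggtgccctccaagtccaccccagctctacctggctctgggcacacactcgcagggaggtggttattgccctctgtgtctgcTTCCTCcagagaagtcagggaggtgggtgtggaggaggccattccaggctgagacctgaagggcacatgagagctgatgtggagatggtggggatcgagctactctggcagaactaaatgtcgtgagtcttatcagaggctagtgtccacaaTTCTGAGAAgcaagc

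The 5 genes whose log2 CPM was most like that of *Csf1r* over the 6 MAM libraries, of 10080 genes with a mean of at least 5 CPM, were *Tlr8* (Pearson's r = 0.9996), *Mpeg1* (0.9986), *H6pd* (0.9964), *Rxra* (0.9924) and *Myo5a* (0.992). *Tlr8* encodes an endosomal receptor for RNA and *Mpeg1* a pore-forming protein of macrophages, and they ranged from 37.9 to 114.8 CPM and from 1477.9 to 2625.2 CPM over the libraries. For *Csf3r* they were *Ifnar1* (0.9921), *Insr* (0.9913), *Snx19* (0.9855), *Mbnl2* (0.9855) and *Zfp526* (0.9843). These values describe 6 libraries of 2 groups that share depth and sort, and many genes are highly correlated over so few points.

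The sorting marker and cell type lists were checked in the same libraries, where 27.8% of all genes were higher and 27.1% lower in F4/80high MAMs. *Adgre1*, which encodes F4/80, was 6.56-fold higher in F4/80high MAMs (805.6 to 1166.8 against 124.5 to 160.4 CPM, adjusted p = 8.63e-06). Mature macrophage markers were higher in 11 of 12 cases, and 9 of 10 classical monocyte markers were lower (*F13a1* was higher). Of 8 Kupffer cell markers 4 were higher, 3 lower and 1 did not pass, and *Clec4f* was at most 2.80 CPM. Of 10 listed NK cell and ILC1 markers 9 were lower, as were 4 of 10 T cell markers and all 3 listed epithelial markers, whereas 2 of 7 B cell markers were higher. Endothelial markers split into 2 higher and 3 lower of 6 listed, the 3 listed hepatocyte markers did not pass, and *Siglecf*, the only eosinophil, basophil and mast cell marker listed, was lower.

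**Figure D4:**
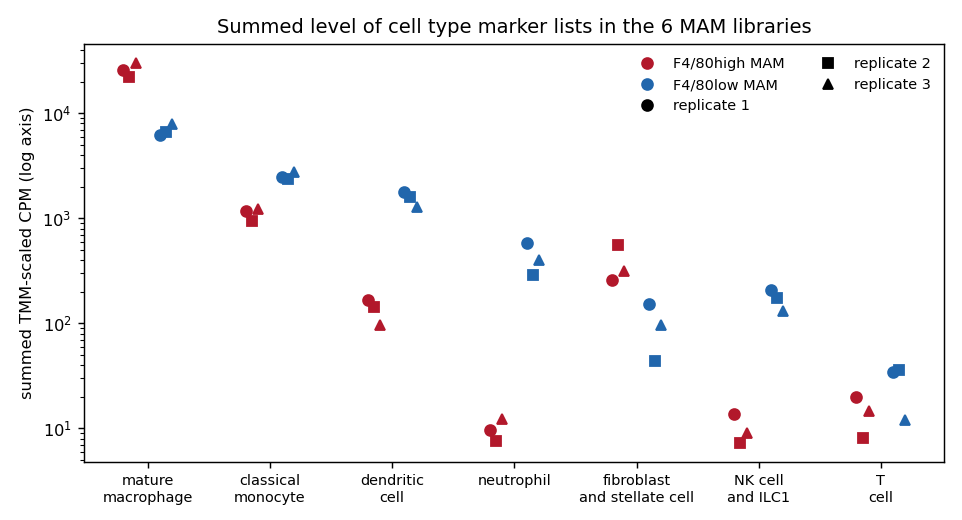
Summed TMM-scaled CPM (log axis) of 7 cell type marker lists in each MAM library; colors give the group and symbols the replicate. Mature macrophage and fibroblast markers were higher in all F4/80high libraries, and classical monocyte, dendritic cell, neutrophil, and NK cell and ILC1 markers in all F4/80low libraries.

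In lymphocytes *Csf1* stood out in MFL ILC1, the liver-resident innate lymphocytes. Its level was 23.4, 30.9 and 27.4 CPM in MFL ILC1 replicates 1 to 3 and 5.47, 2.73 and 2.64 CPM in MFL NK replicates 1 to 3. In metastases it was 5.91, 0 and 2.05 CPM in LM CD49a- NK and 1.16, 0 and 8.27 CPM in LM CD49a+ NK replicates 1 to 3. The lowest MFL ILC1 library was above all 9 other libraries, a pattern shown by 4.18% of the 13594 genes tested, and in 12.2% of genes every MFL ILC1 library exceeded every MFL NK library. The 2 values of 0 allow up to 0.332 CPM in LM CD49a- NK replicate 2 and 0.235 CPM in LM CD49a+ NK replicate 2, from a limit of 3 counts that covers counting error only.

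The test did not match this separation. In the fit of all 12 libraries the log2 fold change of MFL ILC1 over MFL NK cells was 2.91 (means 27.2 ± 3.73 and 3.61 ± 1.61 CPM, SD, n = 3), with an SE of 1.62 and an adjusted p of 0.803, in a comparison in which 3.06% of genes passed. With only the 6 MFL libraries in the fit the same difference was 2.90 with an SE of 0.45 and passed (edgeR, adjusted p = 0.004), as did 9.61% of the 12779 genes tested there. By limma-voom with quality weights, fitted to all 12 libraries, it passed at 3.35 (adjusted p = 4.1e-05), as did 19.5% of genes. The LM libraries had 6.47 to 26.2% of tested genes at 0 against 1.56 to 13.2% in MFL libraries, and why the call differed between fits was not tested. LM CD49a+ NK cells lay below MFL ILC1 without overlap, at a mean of 3.14 ± 4.48 CPM (log2 fold change -3.11, SE 1.63, adjusted p = 0.426, 3.58% of genes passing). In 13.9% of genes MFL ILC1 lay above LM CD49a+ NK cells in this way. By limma-voom this difference passed at -6.02 (adjusted p = 0.0364), as did 6.88% of genes.

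*Csf1* was not told apart among the NK populations. The log2 fold change was 0.24 (SE 1.52, adjusted p = 0.983) for LM CD49a+ over LM CD49a- NK cells, where 0.14% of genes passed, and -0.20 (SE 1.51, adjusted p = 0.999) for LM CD49a+ over MFL NK cells, where 0.647% passed. It was -0.45 (SE 1.52, adjusted p = 0.996) for LM CD49a- over MFL NK cells, where 0.0736% passed. SEs of this size leave differences of several fold undetectable at this depth. The test of whether the CD49a difference depended on site gave -2.67 (SE 2.18, adjusted p = 0.841), with 1.03% of genes passing. With 1 library left out this value ranged from -5.10 to -1.33.

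*Csf2*, which encodes GM-CSF, was read at 8.66, 11.4 and 4.74 CPM in MFL ILC1 replicates 1 to 3 and at 16.9, 6.49 and 10.1 CPM in LM CD49a+ NK replicates 1 to 3. It was 0.408, 5.82 and 2.57 CPM in MFL NK and 0.334, 0 and 6.70 CPM in LM CD49a- NK replicates 1 to 3. LM CD49a+ NK libraries lay above MFL NK libraries without overlap, as they did for 7.06% of genes, and overlapped LM CD49a- NK libraries at 1 value, 6.49 CPM against 6.70 CPM. Counts ranged from 0 to 175 per library. In order of their means, LM CD49a+ NK (11.2 ± 5.31 CPM) and MFL ILC1 (8.27 ± 3.36) came before MFL NK (2.93 ± 2.73) and LM CD49a- NK cells (2.34 ± 3.77 CPM, SD, n = 3), and neighbours in the order overlapped.

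No *Csf2* comparison passed the test. The log2 fold change was 2.24 (SE 1.63, adjusted p = 0.645) for LM CD49a+ over LM CD49a- NK cells, 1.92 (SE 1.61, adjusted p = 0.895) for LM CD49a+ over MFL NK cells and 1.49 (SE 1.59, adjusted p = 1.0) for MFL ILC1 over MFL NK cells. The first of these rested on single libraries, since it was 5.96 without LM CD49a- NK replicate 3 (adjusted p = 0.183) and ranged from 1.66 to 5.96 with 1 library left out. The log2 fold change was 0.43 (SE 1.56, adjusted p = 0.968) for LM CD49a+ NK cells over MFL ILC1 and -0.32 (SE 1.56, adjusted p = 0.996) for LM CD49a- over MFL NK cells. The dependence of the CD49a difference on site was 0.75 (SE 2.20, adjusted p = 0.998).

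**Figure D5:**
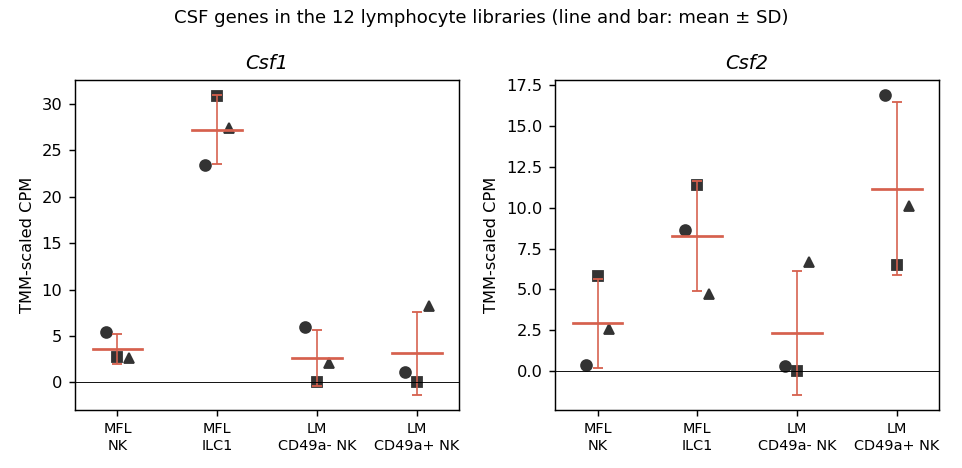
TMM-scaled CPM of *Csf1* and *Csf2* in each of the 12 lymphocyte libraries (symbols: replicate; red line and bar: mean ± SD, n = 3). The 3 MFL ILC1 libraries lie at 23.4 to 30.9 CPM for *Csf1*, above the other 9, whereas *Csf2* groups overlap except LM CD49a+ NK over MFL NK cells.

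The lymphocyte labels were checked by *Itga1*, which encodes CD49a and was used for the sort: 646.1 to 680.4 CPM in MFL ILC1, 104.6 to 155.7 CPM in LM CD49a+ NK, and at most 20.1 CPM in the other libraries. T cell markers moved with *Csf1*, with sums of 619.4 to 1034.7 CPM in MFL ILC1 against 95.9 to 258.2 CPM elsewhere, mainly from *Cd3g* and the beta constant genes *Trbc1* and *Trbc2*. *Cd3e* stayed at 0 to 2.97 CPM in all 12 libraries, with 0 in MFL ILC1 replicates 1 and 3. Of the other cell type lists, 5 were also higher in every MFL ILC1 library than in the other 9, each mainly through 1 gene. The neutrophil list summed to 109.6 to 155.5 CPM against at most 2.09 CPM (*Mmp9*), the B cell list to 138.4 to 184.9 against at most 120.8 CPM (*Ighm*) and the epithelial list to 60.2 to 96.9 against at most 51.5 CPM (*Cdh1*). The dendritic cell list summed to 659.5 to 809.2 against at most 536.2 CPM and the myeloid list to 672.1 to 852.9 against at most 599.6 CPM, both through *Itgax*, which they share. The classical monocyte list was lower in every MFL ILC1 library (145.6 to 294.1 against at least 864.5 CPM). The part of such cells in the *Csf1* and *Csf2* values was not tested.

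The receptors themselves were low in lymphocytes. *Csf1r* was at 15.9 CPM in MFL ILC1 replicate 2 and 6.41 CPM in LM CD49a+ NK replicate 2, the libraries that also had the most *Lyz2*, a myeloid gene (85.2 and 18.3 CPM). It was at 0 to 3.43 CPM in the others and at 0 in all LM CD49a- NK libraries. *Csf2ra* reached 18.1 CPM in MFL ILC1 replicate 1 and 14.1 CPM in LM CD49a+ NK replicate 2. Its means were 12.8 CPM in MFL ILC1 and 5.90 CPM in MFL NK cells, without overlap (log2 fold change 1.12, SE 1.53, adjusted p = 1.0). *Csf2rb* was at most 8.53 CPM. Its means were 3.83 CPM in MFL ILC1 and 0.0736 CPM in MFL NK cells, also without overlap (log2 fold change 5.5, SE 2.64, edgeR adjusted p = 0.614). In 12.2% of the genes tested every MFL ILC1 library exceeded every MFL NK library. *Csf2rb2* was at most 2.27 CPM and *Csf3r* at most 4.25 CPM. Against MAMs these values are a description only, since the 2 sets of libraries were made with different kits and scaled separately.

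Over the 12 lymphocyte libraries, of 9775 genes with a mean of at least 5 CPM, those most like *Csf1* were *Plcg1* (r = 0.9427), *Numbl* (0.8902), *Rnf14* (0.8867), *Itgad* (0.8749) and *Dock6* (0.8711). *Plcg1* encodes a phospholipase of receptor signalling and *Itgad* an integrin chain. Those most like *Csf2* were *Synj2* (0.9473), *Tns1* (0.9373), *Zmym3* (0.9367), *Nudt6* (0.9357) and *2300009A05Rik* (0.9352). These correlations are descriptions of 12 libraries in 4 groups with many zero counts and unequal shares of undetected genes.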

How the data were processed

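Gene counts were taken from 2 deposited tables, 1 of 6 MAM libraries and 1 of 12 lymphocyte libraries. Per the labels and the study's methods, the authors trimmed reads, quantified transcripts with Salmon 1.5.0 (1.10.0 named for MAMs) against GRCm39 and summed them per gene, so the deposited values are estimated counts, not normalized. They were rounded to whole numbers here. MAM libraries were poly(A)-selected and lymphocyte libraries were of total RNA, so each table was fitted on its own. Library totals were 21278959 to 32267015 (MAMs) and 8795721 to 14386834 (lymphocytes). All 13759 MAM genes, the lowest with a total of 37, and 13594 of 54309 lymphocyte features passed filterByExpr. The MAM table thus held no gene with a total under 37, although 0.196 to 0.632% of its genes had no read in a given library. A gene missing from it may have been filtered.

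Group comparisons used edgeR 4.0.16 (R 4.3.3) with TMM scaling and the quasi-likelihood test, called at the study's adjusted p of 0.1. DESeq2 1.42.0, limma 3.58.1 voom, other scaling, filters, sample sets and a replicate block were alternatives. The genes, lists and tests were chosen with earlier results of these data known. Genes named from a list were the called ones with the largest change, up to 2 each way, plus all ligands and partner receptors, *Adgre1*, *Itga1* and the 5 genes most like each of 4 members; *Spi1*, the marker genes given as values and the listed genes that did not pass were named after their values were seen. Symbols and lengths came from GENCODE vM39. Intervals cover counting error only.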

Additional observations from a re-analysis of the deposited data

How the results depend on the processing

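Of 309 repeats under the alternatives, 291 kept their direction and side of the threshold, or, for the number of these genes called in MAMs, stayed within 1.5 times of 5. That number was 4 by DESeq2, without F4/80high replicate 2, without F4/80low replicate 2 or 3, and with *Csf2rb* and *Csf2rb2* added up as 1 gene. Most of the 309 repeats were lymphocyte comparisons of *Csf1* and *Csf2*. None of these passed as reported, and with their large SEs, staying on that side says little. *Csf1r*, *Csf2ra*, *Csf2rb* and *Csf2rb2* kept direction and call in every MAM alternative run. *Csf1* in MAMs was lost by DESeq2 (0.92) and ranged from 0.62 to 1.41 with 1 library left out, and *Il3ra* from -0.32 to -0.22. In lymphocytes *Csf1* in MFL ILC1 over MFL NK cells passed with only the groups compared (2.90) and by limma-voom (3.35), as did LM CD49a+ NK cells over MFL ILC1 by limma-voom (-6.02). *Csf1* in LM CD49a+ over LM CD49a- NK cells reversed by limma-voom (-1.57) and ranged from -2.19 to 1.58 with 1 library left out. The range was -2.64 to 0.38 for LM CD49a+ over MFL NK and -1.79 to 0.13 for LM CD49a- over MFL NK cells. For *Csf2* it was -4.05 to 0.65 in the latter comparison and -0.22 to 4.49 for the dependence on site, which for *Csf1* ranged from -5.10 to -1.33 (-4.92 by limma-voom). *Csf2* ranged from 1.66 to 5.96 for LM CD49a+ over LM CD49a- NK, 1.4 to 2.89 for LM CD49a+ over MFL NK and 0.97 to 2.46 for MFL ILC1 over MFL NK cells, none passing. None of these reversals passed a test, and the cause was not tested.

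The lymphocytes came from 3 separate sorts, and whether a replicate number stands for a sort is not given in the sources used here. Deviations of same-numbered MAM libraries correlated at 0.172, -0.0145 and 0.0272, and of lymphocyte libraries at -0.0452 to 0.0981. Libraries of different numbers were not compared, so these values cannot show whether the numbers pair the libraries. A replicate block left 7512 of all MAM genes called beside 7555, and gave log2 fold changes of 0.62 for *Csf1r*, -2.03 for *Csf2rb* and 0.99 for *Csf1*. It changed no call of these genes.

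Counts of all genes called in lymphocytes moved widely. LM CD49a+ over LM CD49a- NK cells gave 19 by edgeR, 543 by DESeq2, 200 without the filter, 3 with only these groups and 0 by limma-voom (746 at an unadjusted p under 0.05). MFL ILC1 over MFL NK cells gave 416, 667 by DESeq2, 2645 by limma-voom and 1228 with only these groups. LM CD49a+ NK cells over MFL ILC1 gave 486, 1010 by DESeq2, 935 by limma-voom and 774 without the filter. LM CD49a+ over MFL NK cells gave 88, against 365, 307 and 371 by the same 3 settings, LM CD49a- over MFL NK cells 10, against 161, 104 and 158, or 3 with only these groups, and the dependence on site 140, against 349 by DESeq2 and 264 without the filter. With 1 library left out the counts were 5 to 267, 268 to 562, 257 to 708, 26 to 168, 1 to 110 and 75 to 256 in the same order. The common dispersion, as a coefficient of variation, was 0.891 in lymphocytes and 0.162 in MAMs.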

Other observations

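*Csf3*, which encodes G-CSF, was counted in 1 of the 12 lymphocyte libraries. LM CD49a+ NK replicate 2 held 66 counts (5.16 CPM) and the other 11 libraries held none. *Il3*, *Il5* and *Il34* were at 0 in all 12.

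*Il3ra*, the alpha chain that pairs with *Csf2rb* and *Csf2rb2* to bind IL-3, was at 12.8 to 29.4 CPM in MFL ILC1 and 8.03 to 10.3 CPM in MFL NK cells without overlap (log2 fold change 1.22, SE 0.86, edgeR adjusted p = 1.0). The same separation of MFL ILC1 above MFL NK libraries was shown by 12.2% of the 13594 genes tested. In LM CD49a+ NK cells *Il3ra* was at 41.8 CPM in replicate 1 and at 6.18 and 8.37 CPM in replicates 2 and 3.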
